A study of Mus musculus with 12 samples.

Results

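The let-7 family of miRNAs was examined in livers of grown male mice, in a study that crossed the diet of the mothers with the diet of the sons. Its members were chosen by name, by a rule that used no measured value, though earlier results of these data were known. The rule took every row of the mature miRNA table named let-7 with the suffix 5p, the main arm of its hairpin, together with miR-98-5p. This gave 9 of the 386 rows, and all 9 had reads in all 12 libraries, as did every row of the table. The mice were C57BL/6 wild types, killed fasted at postnatal day 84. The OO sons were fed the obesogenic diet after mothers fed that diet, the CO sons the obesogenic diet after control-fed mothers, the OC sons control chow after obesogenic-fed mothers, and the CC sons control chow after control-fed mothers, with 3 libraries in each group. Mothers kept their diet until the sons were weaned on day 21. The control chow, RM1, held 3% lipids and 7% simple carbohydrates by weight. The obesogenic diet held 20% lipids and 10% simple carbohydrates and came with sweetened condensed milk. No label names a mother or a litter, so the 12 libraries may include brothers, and every p-value reflects no more than the spread among them.

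The let-7 miRNAs are short RNAs that bind messenger RNAs mainly through their seed and lower the output of those messengers. They were found in the worm Caenorhabditis elegans as timers of development. In mammals they accumulate as tissues mature and stay high in adult liver. The RNA-binding proteins LIN28A and LIN28B block the maturation of let-7 precursors, and Lin28 messengers are in turn let-7 targets. In mice the Lin28 and let-7 pair also acts on glucose handling through the insulin and mTOR pathway, several of whose components are let-7 targets.

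The mature sequences are shown because family members can differ by a single base, which sets how far reads can tell them apart. They are RefSeq sequences (GRCm38.p6), written 5′ to 3′, with the seed, bases 2 to 8, in capitals.
let-7f-5p: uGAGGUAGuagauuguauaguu
let-7a-5p: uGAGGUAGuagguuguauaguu
let-7g-5p: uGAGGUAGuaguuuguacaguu
let-7c-5p: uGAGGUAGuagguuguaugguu
let-7i-5p: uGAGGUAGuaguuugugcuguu
let-7b-5p: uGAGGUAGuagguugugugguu
let-7d-5p: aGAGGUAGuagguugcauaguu
miR-98-5p: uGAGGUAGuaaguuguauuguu
let-7e-5p: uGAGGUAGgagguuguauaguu
All 9 sequences were 22 bases long and carried 1 seed, GAGGUAG. Of the 390 miRNA names in the table, 324 had a RefSeq mature sequence, and among these 0 others shared that seed. The sequences varied at 8 of 22 positions, counted from the 5′ end: 1, 9, 11, 12, 16, 17, 18 and 19. Set against let-7a-5p, which stands first in each substitution, let-7f-5p differed by G12A, let-7c-5p by A19G and let-7e-5p by U9G. let-7g-5p carried G12U and U18C, let-7b-5p A17G and A19G, let-7d-5p U1A and U16C, and miR-98-5p G11A and A19U. let-7i-5p was the farthest from let-7a-5p, with G12U, A17G, U18C and A19U. Of the 36 pairs of members, 4 differed by 1 base: let-7f-5p and let-7a-5p, let-7a-5p and let-7c-5p, let-7a-5p and let-7e-5p, and let-7c-5p and let-7b-5p. How many mismatches the authors allowed, and how they counted a read that matched several members, is not given in the sources used here, so the split of reads within such pairs is uncertain.

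These 9 sequences come from 12 hairpins (RefSeq, GRCm38.p6). let-7a-5p, let-7f-5p and let-7c-5p each have 2 source hairpins with the same mature sequence, so their levels are sums over 2 loci. On the minus strand of chromosome 13, let-7a-1 (chr13:48538179-48538272), let-7f-1 (chr13:48537829-48537917) and let-7d (chr13:48536012-48536114) lie in exons of the long noncoding RNA 6720427I07Rik. On the X chromosome, let-7f-2 (chrX:151912346-151912428) and miR-98 (chrX:151913214-151913321) lie 786 bases apart in an intron of Huwe1, which encodes a ubiquitin ligase. On chromosome 15, let-7c-2 (chr15:85706603-85706697) and let-7b (chr15:85707319-85707403) lie 622 bases apart in an exon of the noncoding RNA Lncppara. let-7c-1 (chr16:77599657-77599750) is intronic in the noncoding RNA Mir99ahg, 657 bases from the miR-99a hairpin. let-7a-2 (chr9:41536716-41536811) is intronic in a noncoding transcript, 5212 bases from the miR-100 hairpin. let-7e (chr17:17830352-17830444) is intronic in Spaca6, 368 bases from the miR-125a hairpin. let-7g (chr9:106178840-106178927) is intronic in Wdr82, whose protein belongs to histone methyltransferase complexes, and let-7i (chr10:122985640-122985724, minus strand) lies in an exon of the transcribed pseudogene D630033A02Rik. The letters GGAG, which LIN28 proteins are known to contact in let-7 precursors, were searched on the hairpin strand only. They occurred in 9 of the 12 let-7 hairpins, all but let-7c-2, let-7b and miR-98, against 447 of 1005 RefSeq mouse hairpins (44.5%). Such a match is a description of the letters and not a binding site.

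The values are CPM, read counts that the authors scaled to a common total before depositing them. Their steps give a median depth of 13.2 M reads, between 5.45 M in CO replicate 3 and 22.2 M in OC replicate 1. The least covered member value, let-7e-5p in CO replicate 3, rested on 2236 reads, for which counting error is 2.11%. The liver label was checked with 4 hepatocyte-enriched miRNAs (miR-122-5p, miR-192-5p, miR-194-5p and miR-148a-3p), whose summed level was 354009 to 404885 CPM in obesogenic-fed sons and 334574 to 357084 CPM in control-fed sons. miR-192-5p was the most abundant row of the table, at a mean of 246349 CPM, and miR-148a-3p averaged 83864 CPM. The 4 together averaged 360381 CPM, so the sum mostly reflects these 2 and says little of miR-122-5p and miR-194-5p. This is bulk liver, so fewer cells of a type and less RNA per cell cannot be told apart. One title stem is shared by OO replicate 3 and OC replicate 2, the labels do not say what it stands for, and a tie between these libraries was not tested. Sample titles split fully by maternal diet, so a factor behind the titles and maternal diet cannot be told apart.

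let-7f-5p was the most abundant member, at 31190 ± 6395 CPM over the 12 libraries (SD, n = 12), and ranked 8 by mean level among all 386 rows. let-7a-5p (7984 ± 1462 CPM) and let-7g-5p (6978 ± 1126 CPM) followed at ranks 20 and 24. let-7c-5p averaged 4926 ± 1013 CPM. These 4 members were the upper tier of the family. In a middle tier, let-7i-5p averaged 1950 ± 169.9 CPM, let-7b-5p 1446 ± 260.2 CPM and let-7d-5p 1293 ± 169.3 CPM. The lowest members were miR-98-5p, at 354.7 ± 65.6 CPM, and let-7e-5p, at 333.2 ± 76.9 CPM, at ranks 82 and 84. Read shares of different miRNAs also depend on ligation during library making, which was not tested.

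The order was stable at its wide steps and loose at its narrow ones. let-7f-5p exceeded let-7a-5p in 12 of 12 libraries, by 1.96 ± 0.23 on the log2 scale (SD), and let-7c-5p exceeded let-7i-5p in 12 of 12. let-7i-5p exceeded let-7b-5p, and let-7d-5p exceeded miR-98-5p, in 12 of 12 as well. let-7a-5p exceeded let-7g-5p in 10 of 12 libraries, let-7g-5p exceeded let-7c-5p in 11, and let-7b-5p exceeded let-7d-5p in 11. miR-98-5p exceeded let-7e-5p in 8 of 12, with a mean log2 difference of 0.10 ± 0.33. For let-7a-5p and let-7g-5p (0.19 ± 0.20), and for miR-98-5p and let-7e-5p, the mean difference was smaller than its SD over the libraries. That SD is not the error of the mean, and whether these pairs differ was not tested.

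**Figure D1:**
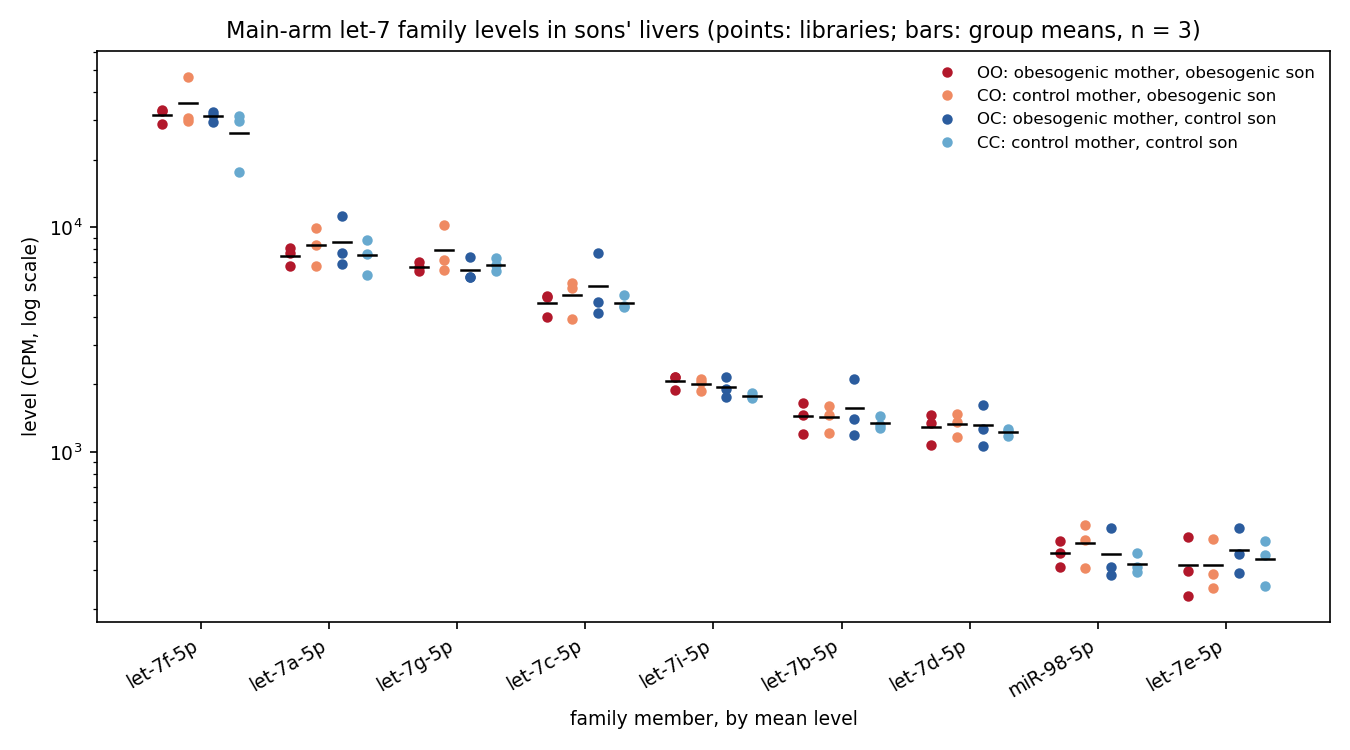
Level of each of the 9 members (CPM, log axis) in the 12 libraries, with members from left to right by mean level; points are libraries, coloured by group, and black bars are group means (n = 3). The members form an upper, a middle and a low tier, from 31190 CPM for let-7f-5p to 333.2 CPM for let-7e-5p, and the 4 groups overlap for every member except let-7i-5p, whose 3 CC libraries lie below the OO and CO libraries.

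The summed level of the 9 members was 50499, 58574 and 58435 CPM in OO livers, 51618, 57536 and 78277 CPM in CO livers, 65678, 51301 and 55082 CPM in OC livers, and 39785, 53089 and 57591 CPM in CC livers. All 4 groups overlapped, and the highest and the lowest library both came from sons of control mothers. The sum averaged 59157 ± 10009 CPM in the 6 obesogenic-fed sons and 53754 ± 8488 CPM in the 6 control-fed sons (mean ± SD), a difference of 5402 CPM against a pooled SD within groups of 9469 CPM. Without CO replicate 3 that difference was 1452 CPM, and without CC replicate 1 it was 2810 CPM. With TMM factors, and without CO replicate 1, it was instead larger than 5402 CPM. The sum averaged 56595 ± 5609 CPM in sons of obesogenic mothers and 56316 ± 12579 CPM in sons of control mothers, a difference of 278.5 CPM. Both diet differences were smaller than the SD within groups, which is not the error of a difference of means, and neither was tested.

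let-7f-5p alone held 55.0 ± 4.24% of the family sum (SD, n = 12), let-7a-5p 14.2 ± 1.29%, and the other members less. The share of let-7f-5p was 53.3 to 59.8% in obesogenic-fed sons and 44.3 to 57.5% in control-fed sons. The 2 lowest shares were 49.6% in OC replicate 1 and 44.3% in CC replicate 1, and these libraries had the 2 highest shares of let-7a-5p (17.2% in OC replicate 1 and 15.4% in CC replicate 1) and of let-7c-5p (11.7% in OC replicate 1 and 11.1% in CC replicate 1). let-7e-5p, the least abundant member, held 0.392 to 0.717% in sons on the obesogenic diet and 0.567 to 0.701% in sons on chow. In OO against OC, the shares of 0 of 9 members separated the groups without overlap. In each of the other 4 comparisons of 2 groups 1 of 9 did, and it was a different member each time: let-7e-5p, lower in CO than in CC livers, let-7g-5p, lower in OC than in CC livers, let-7i-5p, higher in OO than in CO livers, and let-7a-5p, lower in OO than in CC livers. By CPM level, 22.0% of all rows did not overlap in CO against CC, and 8.81% in OC against CC. The figure was 19.2% in OO against CO and 22.0% in OO against CC. Counts of 1 of 9 are near or below these figures and are not read as results about the members. The separations are descriptions of small groups and have no test.

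**Figure D2:**
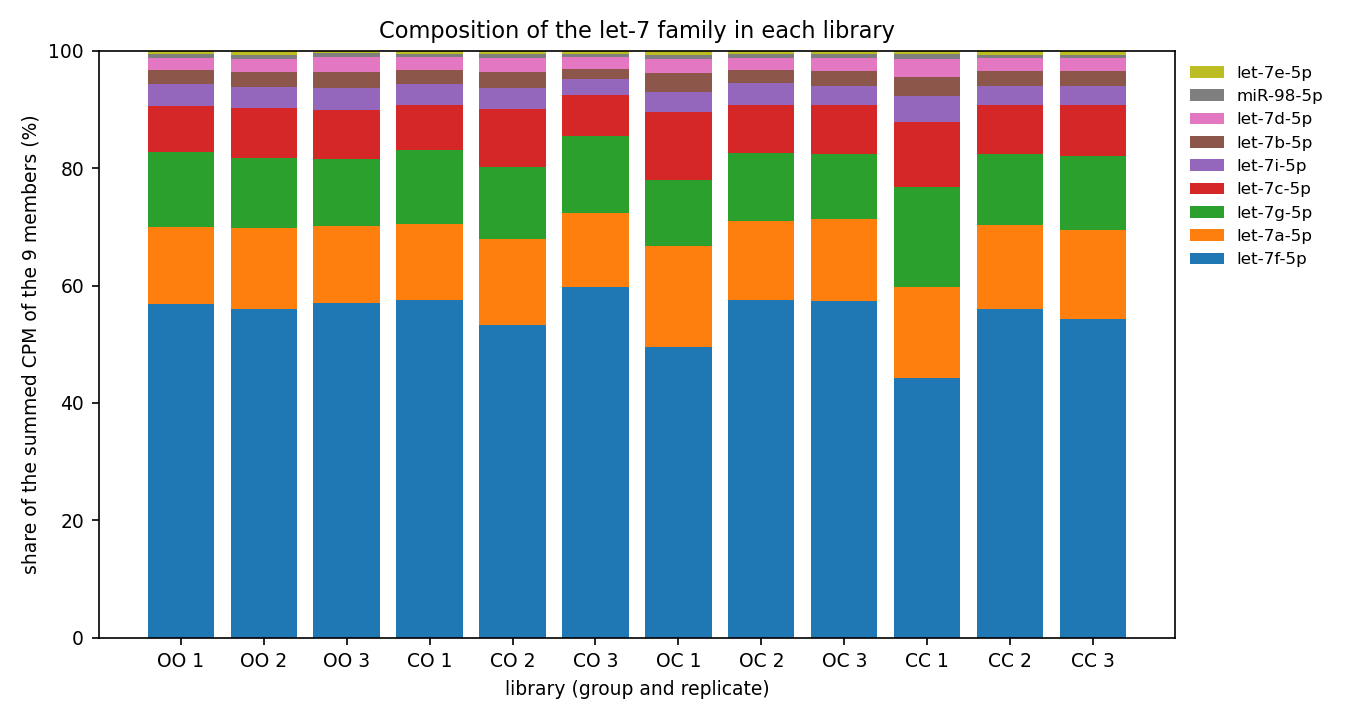
Share of the summed CPM of the 9 members (%) held by each member in the 12 libraries, ordered OO, CO, OC and CC; each stack adds up to the whole family. let-7f-5p holds 49.6% or more of the sum everywhere except in CC replicate 1, at 44.3%.

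In several libraries the whole family lay on one side of its own average. Each member's log2(CPM + 1) was set against its mean over the 12 libraries. All 9 members were above their means in OO replicate 2, CO replicate 3 and OC replicate 1, and all 9 below in OO replicate 1, CO replicate 1, OC replicate 2 and CC replicate 1. In CO replicate 3 the 9 deviations ran from 0.03 to 0.61, while 29.0% of all 386 rows were above their own means there. In OC replicate 1 they ran from 0.09 to 0.66, with 68.7% of all rows above. OC replicate 1 held the highest value of 6 members and CO replicate 3 that of the other 3, let-7f-5p, let-7g-5p and miR-98-5p. These libraries differed in which members stood out: let-7f-5p (0.61) and let-7g-5p (0.57) in CO replicate 3, against let-7c-5p (0.66), let-7b-5p (0.57) and let-7a-5p (0.52) in OC replicate 1. In CC replicate 1 let-7f-5p deviated by -0.79 and let-7g-5p by -0.03.

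Other values set these 3 libraries apart too. CO replicate 3 was the shallowest library, had the lowest endothelial sum (both listed markers measured, 15584 CPM, the next lowest being 21065 CPM in CO replicate 1) and the highest hepatocyte sum. OC replicate 1 was the deepest and had the highest summed level of the 6 leukocyte markers, 4580 CPM. That sum ranged from 2270 to 3383 CPM in obesogenic-fed sons and from 2831 to 4580 CPM in control-fed sons. It also had the lowest hepatocyte sum, the highest sum of the 5 biliary and other epithelial markers, 892.3 CPM, in a range of 398.7 to 871.3 CPM in obesogenic-fed sons and 395.6 to 892.3 CPM in control-fed sons, and the highest sum of the 4 measured of 8 listed muscle, nerve and pancreas markers, 2151 CPM, in a range of 61.0 to 1436 CPM in obesogenic-fed sons and 79.5 to 2151 CPM in control-fed sons. CC replicate 1 had the highest sum of the 6 measured of 7 mesenchymal markers, 48465 CPM, in a range of 33887 to 46298 CPM in obesogenic-fed sons and 31639 to 48465 CPM in control-fed sons. Not all of these values stood alone: CO replicate 3 came close in the mesenchymal sum (46298 CPM) and CO replicate 2 in the epithelial sum (871.3 CPM). No measured marker was at 0 in any library, and neither was any other row of the table. The part of these cell types in the let-7 levels was not tested, and depth entered only as a covariate in 1 of the 20 alternatives.

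**Figure D3:**
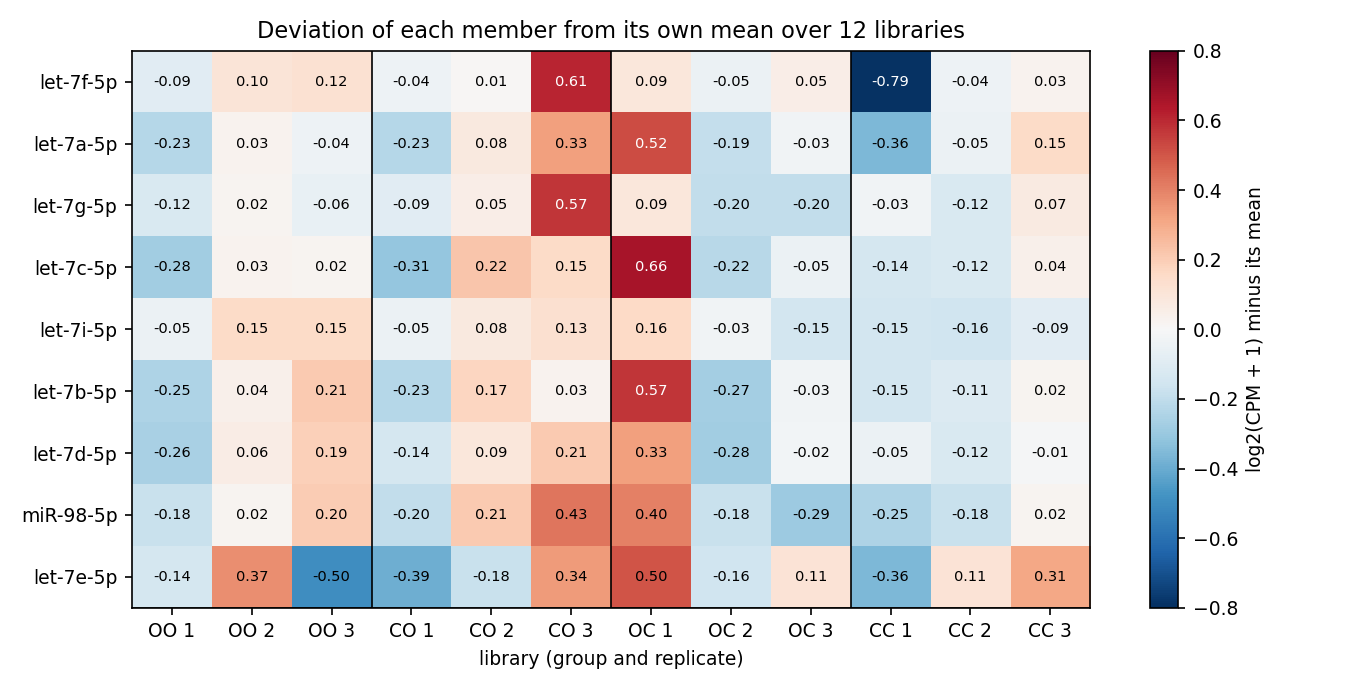
Deviation of log2(CPM + 1) from the member's own mean over the 12 libraries, for 9 members (down) and 12 libraries (across, by group); red is above and blue below the mean. CO 3 and OC 1 are red in all 9 members and CC 1 is blue in all 9, with the extremes at 0.66 for let-7c-5p in OC 1 and -0.79 for let-7f-5p in CC 1.

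Members differed in how much they varied. let-7i-5p was the steadiest, with an SD of 0.13 in log2(CPM + 1) over the 12 libraries, and 22 of the 386 rows (5.7%) had a smaller one. let-7d-5p (0.19) and let-7g-5p (0.20) followed. let-7e-5p (0.33) and let-7f-5p (0.31) varied most, although let-7f-5p was the best covered. The median over members was 0.25, beside 0.27 over all rows and 0.19 over the 84 rows at or above the mean level of let-7e-5p.

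Likeness between members was measured as the root mean square difference of their deviations over the 12 libraries, in log2 units, where 0 would be identical profiles. The closest pair was let-7c-5p and let-7b-5p (0.078), which differ by 1 base and share the chromosome 15 locus. The ratio of let-7b-5p to let-7c-5p was 0.300 ± 0.0226 in obesogenic-fed sons and 0.290 ± 0.00829 in control-fed sons (SD over 6 libraries each). Next came let-7b-5p and let-7d-5p (0.098), which differ by 4 bases and share no locus. let-7a-5p and let-7c-5p, 1 base apart, followed at 0.113. A single base did not always go with a like profile: let-7a-5p and let-7e-5p stood at 0.204, and let-7f-5p and let-7a-5p, which also share the chromosome 13 locus, at 0.221. let-7f-5p and let-7d-5p, of the same locus, stood at 0.272, and let-7f-5p and miR-98-5p, neighbours on the X chromosome, at 0.235. The farthest pair was let-7f-5p and let-7c-5p, at 0.315. All points share the 12 libraries and their scaling.

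The first question the design puts is whether the sons' own diet moved the family. In obesogenic-fed against control-fed sons, averaged over maternal diet, no member passed. By limma, 0 of 9 members had an adjusted p under 0.05, 0 had an unadjusted p under 0.05, and 0 passed by limma-voom. Of all 386 rows, 0.777% passed by limma, 0.777% passed by limma-voom and 14.8% had an unadjusted p under 0.05. No member separated the diets without overlap (0 of 9, beside 2.59% of all rows). Of the members, 5 had higher and 4 lower means, with a median log2 change of 0.05, beside -0.02 over all rows.

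let-7f-5p, the leading member, had a lowest, median and highest level of 28680, 31738 and 46784 CPM in obesogenic-fed sons, against 17633, 30495 and 32550 CPM in control-fed sons. The groups overlapped between 28680 and 32550 CPM, and the 2 extremes were CO replicate 3 and CC replicate 1. Its log2 change was 0.24 (95% interval -0.09 to 0.57, limma adjusted p = 0.505). Leaving out CC replicate 1 gave 0.11, and leaving out CO replicate 3 gave 0.13. The change was 0.29 with TMM factors and 0.31 without CC replicate 3.

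let-7i-5p had a lowest, median and highest level of 1875, 2085 and 2161 CPM in obesogenic-fed sons, against 1744, 1792 and 2166 CPM in control-fed sons. The medians stood apart, but OC replicate 1, a control-fed library, held the highest value of all. Its log2 change was 0.14 (-0.03 to 0.30), with the lowest limma adjusted p of the members, 0.426. It was 0.10 to 0.19 under the 20 alternatives.

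The remaining members had smaller differences relative to their error. miR-98-5p differed by 0.16 (-0.16 to 0.48), let-7g-5p by 0.13 (-0.11 to 0.36) and let-7d-5p by 0.05 (-0.21 to 0.31). With any 1 library left out miR-98-5p ran from 0.09 (without CO replicate 3) to 0.27 (without OC replicate 1), and let-7g-5p from 0.03 (without CO replicate 3) to 0.19. let-7e-5p had the lowest change, -0.17 (-0.59 to 0.25), with a range of -0.28 (without OO replicate 2) to -0.07 (without OO replicate 3). It was followed by let-7c-5p at -0.06 (-0.39 to 0.27), let-7a-5p at -0.02 (-0.32 to 0.29) and let-7b-5p at -0.01 (-0.32 to 0.30). All 9 intervals lay within 1 log2 unit of 0, as did those of 361 of all 386 rows, and 7 of the 9 within 0.5.

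**Figure D4:**
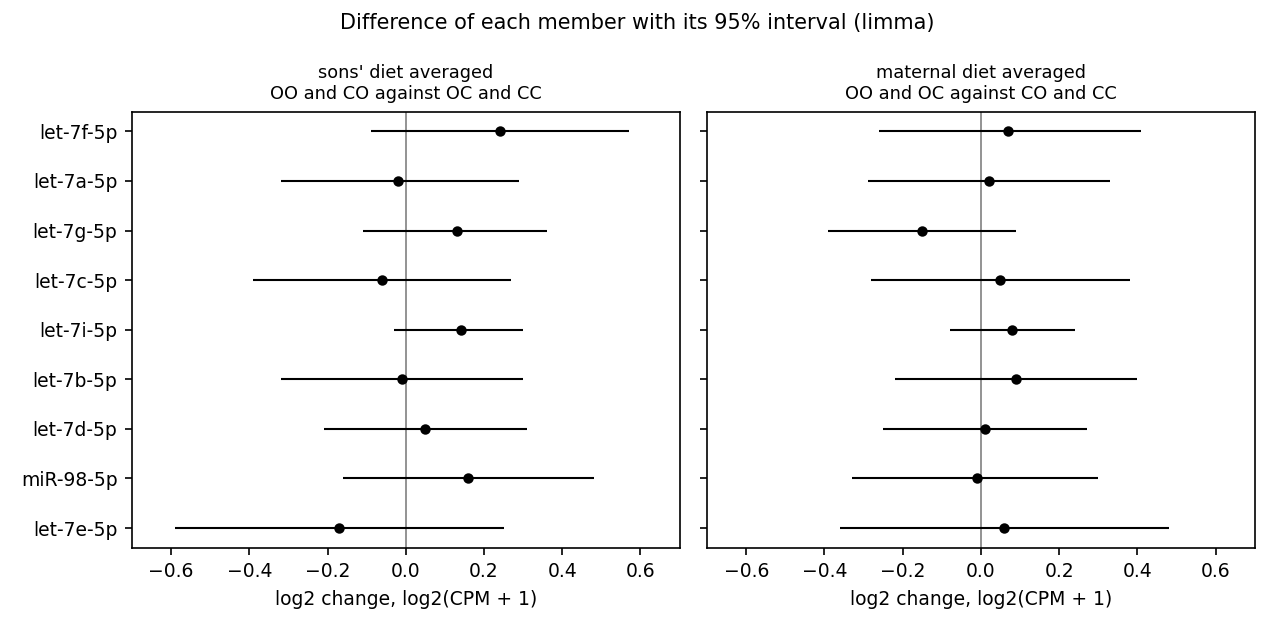
Log2 change of each member (points) with its 95% interval from limma (lines) for the sons' own diet (left, OO and CO against OC and CC) and the maternal diet (right, OO and OC against CO and CC), on the log2(CPM + 1) scale. Every interval includes 0; the largest change is 0.24, for let-7f-5p under the sons' diet.

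After control mothers, CO against CC, 8 of 9 members had higher means, with a median log2 change of 0.15, beside -0.05 over all rows. By limma 0 of 9 members passed, 0 had an unadjusted p under 0.05 and 0 passed by limma-voom. Among all rows, 0.777% passed by limma, 0.259% passed by limma-voom and 16.3% had an unadjusted p under 0.05. With TMM factors the median of all rows moved to 0.06 and that of the members to 0.28. let-7f-5p was at 29695, 30694 and 46784 CPM in CO livers, against 17633, 29729 and 31262 CPM in CC livers. Each group held 2 libraries close together and 1 far from them, high in CO and low in CC. The log2 change was 0.46 (-0.01 to 0.93, limma adjusted p = 0.314). Leaving out CC replicate 1 gave 0.20, and leaving out CO replicate 3 gave 0.25. The change was 0.59 with TMM factors and 0.61 without CC replicate 3.

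let-7i-5p was at 1875, 2048 and 2122 CPM in CO livers, against 1757, 1744 and 1827 CPM in CC livers. It was the only member whose CO and CC libraries did not overlap, as 22.0% of all rows also did not. Its log2 change was 0.18 (-0.05 to 0.41, limma adjusted p = 0.462). let-7g-5p had a log2 change of 0.20 (-0.14 to 0.53), which was 0.00 without CO replicate 3 and 0.33 with TMM factors. That of miR-98-5p was 0.29 (-0.16 to 0.74). It came to 0.15 when CO replicate 3 was left out and to 0.46 when CO replicate 1 was.

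After obesogenic mothers, OO against OC, the members split, 4 higher and 5 lower, with a median of -0.01 beside 0.02 over all rows. Of the 9 members 0 passed by limma, 0 had an unadjusted p under 0.05 and 0 passed by limma-voom. Among all rows, 0.518% passed by limma, 0.518% passed by limma-voom and 7.25% had an unadjusted p under 0.05. The groups did not overlap for 0 of 9 members and 15.5% of all rows. let-7f-5p was at 28680, 32782 and 33324 CPM in OO livers, against 32550, 29508 and 31635 CPM in OC livers, a log2 change of 0.01 (-0.45 to 0.48). let-7i-5p was at 1880, 2161 and 2154 CPM in OO livers, against 2166, 1908 and 1756 CPM in OC livers, a change of 0.09 (-0.14 to 0.32), which was 0.02 without OC replicate 3 and 0.17 without OC replicate 1. For both members the groups overlapped. let-7c-5p was at 3987, 4960 and 4920 CPM in OO livers, against 7654, 4148 and 4666 CPM in OC livers. Its change was -0.20 (-0.67 to 0.26), and 0.06 without OC replicate 1. let-7a-5p likewise had a change of -0.18 (-0.61 to 0.26), and 0.03 without OC replicate 1.

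The second question is the maternal diet. In sons of obesogenic against sons of control mothers, averaged over the sons' diet, 0 of 9 members passed by limma, 0 had an unadjusted p under 0.05 and 0 passed by limma-voom. Of all rows, 0% passed by limma, 0% passed by limma-voom and 6.99% had an unadjusted p under 0.05. The groups were apart with no overlap for 0 of 9 members and 0.777% of all rows. Members' log2 changes ran from -0.15 to 0.09, 7 higher and 2 lower, with a median of 0.05, below the 0.08 of all rows. With TMM and median-of-ratios factors the members' median turned to -0.03 and -0.02. All 9 intervals lay within 0.5 log2 units of 0. Over all 386 rows this was counted only for 1 log2 unit, within which 368 lay.

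let-7g-5p had the change farthest from 0. Its lowest, median and highest level was 6007, 6504 and 7366 CPM in sons of obesogenic mothers, against 6377, 6957 and 10253 CPM in sons of control mothers. The groups overlapped, with CO replicate 3 far above all others. The change was -0.15 (-0.39 to 0.09, limma adjusted p = 0.704). It was -0.05 without CO replicate 3, -0.04 with depth as a covariate and -0.23 with TMM factors. let-7f-5p differed by 0.07 (-0.26 to 0.41), let-7b-5p by 0.09 (-0.22 to 0.40), let-7i-5p by 0.08 (-0.08 to 0.24) and let-7e-5p by 0.06 (-0.36 to 0.48). The change of let-7i-5p was 0.00 with TMM factors, and that of let-7f-5p was 0.34 with depth as a covariate. let-7c-5p, let-7a-5p, let-7d-5p and miR-98-5p lay at 0.05, 0.02, 0.01 and -0.01. The level of let-7f-5p was more even in sons of obesogenic mothers, 28680 to 33324 CPM, than in sons of control mothers, 17633 to 46784 CPM, a spread that came from CO replicate 3 and CC replicate 1.

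In control-fed sons, OC against CC, 8 of 9 members had higher means, with a median log2 change of 0.13 beside 0.03 over all rows. By limma 0 of 9 passed, 0 had an unadjusted p under 0.05 and 0 passed by limma-voom. Over all rows, 0% passed by limma, 0% passed by limma-voom and 1.04% had an unadjusted p under 0.05. For 0 of 9 members and 8.81% of all rows the groups did not overlap. let-7f-5p differed by 0.30 (-0.17 to 0.77), and by 0.03 without CC replicate 1. let-7a-5p was at 11285, 6887 and 7697 CPM in OC livers, against 6143, 7623 and 8762 CPM in CC livers. The groups overlapped, and its change of 0.18 (-0.26 to 0.62) was -0.03 without OC replicate 1.

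In obesogenic-fed sons, OO against CO, 7 of 9 members had lower means, with a median log2 change of -0.09 beside 0.13 over all rows. TMM factors moved the median of all rows to -0.01 and that of the members to -0.25, so the members' median was below that of all rows under either scaling. In this comparison 0 of 9 passed by limma, 0 had an unadjusted p under 0.05 and 0 passed by limma-voom. Over all rows, 0% passed by limma, 0% passed by limma-voom and 12.2% had an unadjusted p under 0.05. For 0 of 9 members and 19.2% of all rows OO and CO did not overlap. let-7g-5p was at 6379, 7025 and 6629 CPM in OO livers, against 6489, 7136 and 10253 CPM in CO livers. Its change was -0.23 (-0.56 to 0.11), which was -0.38 with TMM factors and -0.03 without CO replicate 3. let-7f-5p had a change of -0.15 (-0.62 to 0.32), which was -0.31 with TMM factors and 0.06 without that library.

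With both diets together, OO against CC, 6 members had higher and 3 lower means, with a median of 0.06 beside 0.05 over all rows. The limma test passed 0 of 9, 0 had an unadjusted p under 0.05 and 0 passed by limma-voom. For all rows, 0.259% passed by limma, 0.259% passed by limma-voom and 12.2% had an unadjusted p under 0.05. let-7i-5p was at 1880, 2161 and 2154 CPM in OO livers, against 1757, 1744 and 1827 CPM in CC livers. It was again the 1 member whose groups did not overlap, as 22.0% of all rows did not. Its log2 change was 0.21 (-0.02 to 0.45, limma adjusted p = 0.413). let-7f-5p had a change of 0.31 (-0.16 to 0.78), which was 0.05 without CC replicate 1 and 0.51 with depth as a covariate. This comparison shares its CC libraries with CO against CC.

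The interaction, the sons' diet difference after obesogenic mothers minus that after control mothers, was negative for all 9 members, from -0.45 to -0.09 with a median of -0.16. The median of all rows was 0.13, and with TMM factors the medians were -0.31 for the members and -0.01 for all rows. By limma 0 of 9 passed, 0 had an unadjusted p under 0.05 and 0 passed by limma-voom. For all rows, 0% passed by limma, 0% passed by limma-voom and 3.89% had an unadjusted p under 0.05. let-7f-5p had the lowest interaction, -0.45 (-1.11 to 0.22, limma adjusted p = 0.773). It was -0.18 without CC replicate 1, -0.23 without CO replicate 3 and -0.63 with depth as a covariate. A common sign over the members is not independent evidence, since all 9 share the 12 libraries and their scaling.

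Ratios between members within a library do not depend on the scaling of that library. Over the 36 ratios between 2 members, 0 separated obesogenic-fed from control-fed sons with no overlap, beside 2.8% of the 74305 ratios between any 2 rows. Between maternal diets 1 of 36 did, beside 0.476% of all ratios. It was let-7g-5p over let-7i-5p, a pair that shares G12U and U18C. The ratio was 3.39, 3.25 and 3.08 in OO livers and 3.40, 3.15 and 3.43 in OC livers, against 3.46, 3.48 and 4.83 in CO livers and 3.86, 3.66 and 3.98 in CC livers. All 6 sons of obesogenic mothers lay below all 6 sons of control mothers, by a narrow gap of 3.43 against 3.46 at its closest. The means were 3.28 ± 0.148 in sons of obesogenic mothers and 3.88 ± 0.509 in sons of control mothers (SD, n = 6 each). The ratio was singled out after its values were seen, so it has no test. let-7f-5p over let-7a-5p, the 2 leading members, overlapped between the sons' diets, at 3.68 to 4.72 in obesogenic-fed sons and 2.87 to 4.28 in control-fed sons.

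**Figure D5:**
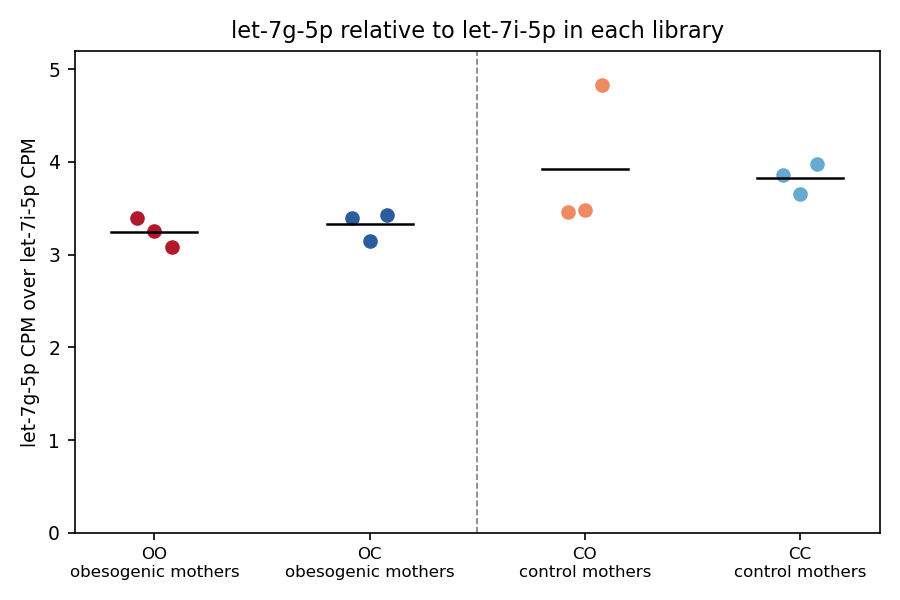
CPM of let-7g-5p divided by CPM of let-7i-5p in each library (points) with group means (bars, n = 3), for sons of obesogenic mothers (left of the dashed line) and of control mothers (right of it). The highest value on the left is 3.43 and the lowest on the right 3.46; CO replicate 3, at 4.83, lies above the rest.

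The listed companions of let-7 genes, miRNAs known to share clusters with them, gave no uniform picture. They are miR-99a-5p, miR-99b-5p, miR-100-5p, miR-125a-5p and miR-125b-5p. A search for hairpins within 10000 bases of a let-7 hairpin found those of miR-99a, miR-100 and miR-125a. It did not list those of miR-99b and miR-125b, which does not show that they lie farther away. Of the listed miRNAs, 0 of 5 passed by limma or limma-voom in any of the 8 comparisons, beside 0 to 0.777% of all rows by either test. At an unadjusted p under 0.05 the count was 1 of 5 in CO against CC, that of miR-99b-5p, beside 16.3% of all rows, and 0 of 5 in the other comparisons. In CO against CC, 2 of these 5 did not overlap, beside 22.0% of all rows, and they differed in opposite directions. miR-99b-5p was at 524.5 to 587.6 CPM in CO livers, against 672.2 to 690.2 CPM in CC livers, and miR-99a-5p at 153.5 to 189.6 CPM in CO livers, against 125.9 to 150.3 CPM in CC livers. The log2 change was -0.29 (-0.55 to -0.03, limma adjusted p = 0.255) for miR-99b-5p and 0.24 (-0.07 to 0.54, limma adjusted p = 0.477) for miR-99a-5p. In OO against OC, 1 of these 5 did not overlap, beside 15.5% of all rows. It was miR-125b-5p, at 960.2 to 1030 CPM in OO livers, against 757.0 to 955.4 CPM in OC livers. For the sons' diet averaged, miR-99a-5p differed by 0.19 and miR-125b-5p by 0.18, and miR-99b-5p, miR-125a-5p and miR-100-5p by -0.15, -0.15 and -0.06. miR-125a-5p, 368 bases from let-7e, averaged 2172 ± 409.5 CPM and let-7e-5p 333.2 ± 76.9 CPM (SD, n = 12).

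The miRNAs outside the family whose profile over the 12 libraries was most like the members' mean profile were miR-181b-5p (root mean square difference 0.137), miR-24-3p (0.144) and miR-320-3p (0.145). Among the members themselves, let-7a-5p was nearest to that mean (0.070) and let-7e-5p farthest (0.230). let-7e-5p and let-7f-5p (0.211) were farther from the family mean than these 3 miRNAs, although both helped to set it. The 3 were picked as the closest of all rows outside the family, so little is read from this. let-7d-5p (0.094), miR-98-5p (0.103), let-7c-5p (0.122), let-7b-5p (0.126) and let-7i-5p (0.129) were, like let-7a-5p, nearer to the mean than any of the 3.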

How the data were processed

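The table that the authors deposited gives CPM values for 386 mature miRNAs in 12 liver libraries. Per the labels' protocols, the RNA came from miRNeasy columns and went into TruSeq small RNA libraries. The submitters' processing notes name Bowtie 1.2.3. Not given in the sources used here are the build, the miRNA reference, the mismatch rule, the treatment of reads that match several miRNAs and the row filter. Columns summed to 0.866 to 1.17% above the CPM total. All values were whole multiples of 1 step per column (tolerance 0.001 reads), which gave the depth.

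log2(CPM + 1) of all 386 rows was fitted with limma 3.58.1 in R 4.3.3, with 1 mean per group over the 12 libraries, a mean-variance trend, 8 contrasts and two-sided tests, and Benjamini-Hochberg adjustment within each contrast. An adjusted p under 0.05 passed. A change on this scale understates that of low rows. The steps were tested on simulated data. Alternatives were TMM and median-of-ratios factors (own code), rescaling without the 2 most abundant miRNAs, pseudocounts of 0.25 and 5, a mean of at least 10 CPM, limma-voom on the reads, log2 depth as a covariate, and each library left out.

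Each library was matched to its column by the number in its description, and replicate numbers follow accession order and pair nothing. The text names all members, other miRNAs with their seed, 5 cluster miRNAs and the 3 most like miRNAs. The members, lists and markers were chosen with earlier results of these data known. Sequences and loci are from RefSeq, and host genes from GENCODE vM21. Tables and plots were made in Python 3.11.15 with numpy 2.4.6, pandas 2.3.3 and matplotlib 3.10.9.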

Additional observations from a re-analysis of the deposited data

Results flagged for a closer look

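Within the 6 libraries of each diet, 40 groups of values (9 members and their sum, for each diet of son and mother) were searched for a library far from the others, and 9 values stood apart. Chance flags about 1 in 20 groups, and the members share libraries. CO replicate 3 was the highest of the obesogenic-fed sons for let-7f-5p (46784 CPM, next 33324), let-7g-5p (10253 CPM, next 7136) and the family sum (78277 CPM, next 58574). It was also the highest of the sons of control mothers for let-7g-5p (10253 CPM, next 7274). OC replicate 1 was the highest of the control-fed sons for let-7c-5p (7654 CPM, next 4993) and let-7b-5p (2119 CPM, next 1446). It was the highest of the sons of obesogenic mothers for let-7a-5p (11285 CPM, next 8062) and let-7c-5p (7654 CPM, next 4960). CC replicate 1 was the lowest of the control-fed sons for let-7f-5p (17633 CPM, next 29508).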

How the results depend on the processing

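The count of members that passed was 0 of 9 in all 8 comparisons and under all 20 alternatives run, and the lowest adjusted p of a member was 0.111 (let-7f-5p, CO against CC, depth as a covariate). Of 660 values of the member changes given, 57 turned in sign, 39 of them with a library left out, none larger than 0.20 before or 0.14 after turning on the log2 scale. The cause was not tested. With TMM and median-of-ratios factors, the sons' diet change became 0.04 and 0.01 for both let-7a-5p and let-7b-5p, and that of let-7f-5p after obesogenic mothers -0.01 and -0.03. Under the same factors the maternal change became -0.06 and -0.05 for let-7a-5p, -0.03 and -0.02 for let-7c-5p, -0.07 and -0.06 for let-7d-5p, and -0.02 and -0.01 for let-7e-5p, and with TMM alone -0.01 for let-7f-5p. With depth as a covariate, let-7f-5p came to -0.14 in OO against OC and 0.02 in OO against CO, and miR-98-5p to 0.07 for maternal diet. With each library left out in turn, the sons' diet change ran from -0.09 to 0.09 for let-7a-5p, -0.14 to 0.08 for let-7c-5p, -0.10 to 0.11 for let-7b-5p and -0.02 to 0.13 for let-7d-5p. After obesogenic mothers it ran from -0.03 to 0.08 for let-7f-5p, -0.32 to 0.03 for let-7a-5p and -0.38 to 0.06 for let-7c-5p. The maternal change ran from -0.06 to 0.18 for let-7f-5p, -0.09 to 0.09 for let-7a-5p, -0.08 to 0.14 for let-7c-5p, -0.03 to 0.18 for let-7b-5p, -0.07 to 0.08 for let-7d-5p, -0.12 to 0.06 for miR-98-5p and -0.06 to 0.16 for let-7e-5p. It ran from -0.03 to 0.33 for let-7a-5p in OC against CC and from -0.27 to 0.06 for let-7f-5p in OO against CO. The maternal difference in the family sum was -4042 CPM with TMM factors and -2436 to 4229 CPM with a library left out, within the spread of the groups.

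edgeR and DESeq2 on reads recovered from the CPM steps were planned and not run, and limma-voom was the only test run on those reads. No paired analysis was possible because the labels carry no replicate numbers that pair libraries. A shared title stem ties at most 1 OO to 1 OC library, and its meaning is not given. Counting error was small beside the spread between libraries.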
